A study of Mus musculus with 2 samples.

Results

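The melanocyte lineage genes described here are *Mitf*, *Kit*, *Ednrb*, *Tyr*, *Tyrp1*, *Dct*, *Pmel*, *Mlana*, *Slc45a2* and *Slc24a5*. They were the rows of the count table that carry these gene names, and all 10 were found among its 24421 rows. The series holds 1 RNA-Seq library of primary chondrocytes, taken from newborn mouse rib cartilage by collagenase digestion and used within a few passages, and 1 of primary dermal fibroblasts, taken from the dorsal skin of newborn mice by collagenase digestion in the cold. Neither group carried an allele or a treatment in the labels, and the strain of these mice is not given in the sources used here. No sorting of either preparation is described, so other cells of cartilage or skin can be present. The study used the dermal fibroblasts as a control for genes of chondrocytes, and the melanocyte genes were not its subject.

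The libraries held 18788599 counts for chondrocytes and 17563724 counts for dermal fibroblasts. Of 7 markers for each cell type, all 7 of chondrocytes and 6 of dermal fibroblasts were over 2-fold higher in their own library. The other, *Lum*, was within 2-fold, with 3191 counts in chondrocytes and 2881 in dermal fibroblasts. *Col2a1* and *Acan* of cartilage had 1447098 and 148105 counts in chondrocytes against 0 and 35 in dermal fibroblasts, and the fibrillar collagens *Col1a1* and *Col3a1* had 322379 and 273385 counts in dermal fibroblasts against 39143 and 32090 in chondrocytes. Folds are given as dermal fibroblasts over chondrocytes unless stated, after scaling of the totals by TMM factors, which correct for a few very abundant genes. Each fold has a 95% Clopper-Pearson interval that covers counting error only. A fold against 0 counts is a lower bound set against a floor of 3 counts, and its counting interval starts below this bound. With 1 library for each cell type there was no replicate check, no p-value was computed, and "over 2-fold higher" is a statement about these libraries.

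Melanocytes are pigment cells that arise from the neural crest and settle in the skin and hair follicles. In them the transcription factor MITF switches on the genes of melanin synthesis, while signals through the receptors KIT and EDNRB keep the precursors alive and guide their migration. Melanin is made inside the melanosome, an organelle related to the lysosome, by the enzymes TYR, TYRP1 and DCT on a scaffold of PMEL fibrils. In mouse skin the precursors of melanocytes move into the growing hair follicles around birth, and rib cartilage is not a pigmented tissue.

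All 10 genes had more counts in dermal fibroblasts than in chondrocytes, and 8 of them were over 2-fold higher there. The share of all 14730 tested genes, those with at least 10 counts over both libraries, that was over 2-fold higher in dermal fibroblasts was 16.2%. None of the 10 was over 2-fold higher in chondrocytes (0 genes), a direction taken by 12.0% of the tested genes. All 10 passed the minimum of 10 counts. *Dct*, *Tyrp1* and *Slc45a2*, at 0 counts in chondrocytes, and *Mlana*, at 1 count, passed through dermal fibroblasts alone. At the floor of 3 counts such a gene is called by construction once it passes. For a gene at 0 counts the counting interval then lies over 2-fold too. These calls therefore add nothing beyond the detection of the genes in dermal fibroblasts. For the same 8 genes the whole counting interval lay over 2-fold, against 10.5% of the tested genes. The median log2 fold of the 10 genes was 2.42, and it was -5.6e-05 over all tested genes. *Tyr* and *Slc24a5* were the 2 genes within 2-fold. In bulk RNA, the number of melanocytes in a preparation, the RNA of these genes per melanocyte and their RNA from other cells cannot be told apart.

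**Figure D1:**
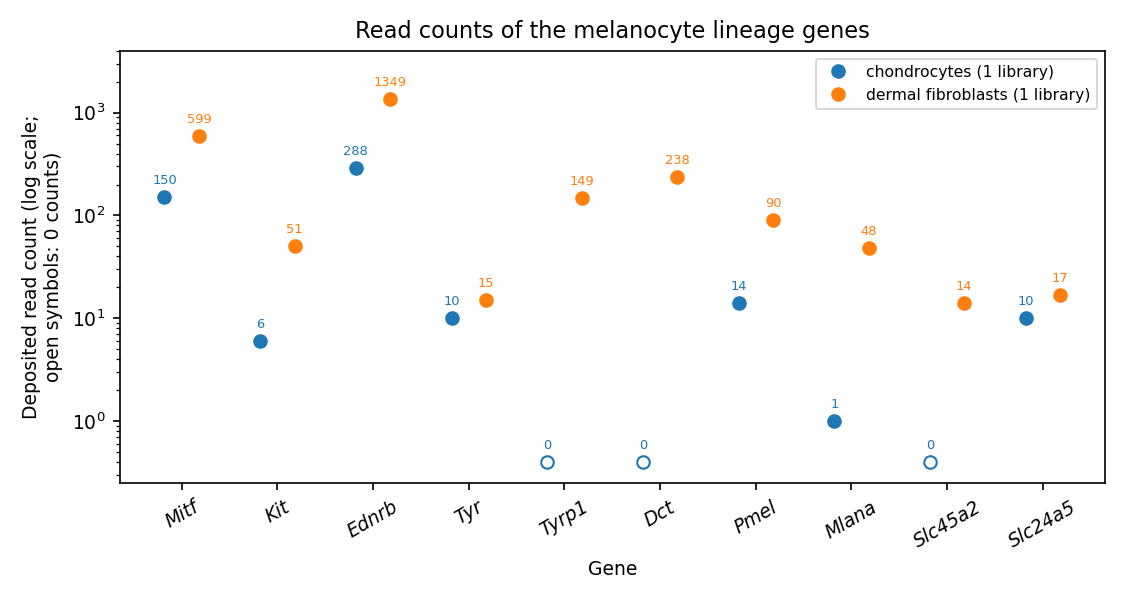
Deposited read count (log axis) of each of the 10 melanocyte lineage genes in each of the libraries, chondrocytes in blue and dermal fibroblasts in orange, with each count written above its point and open symbols for 0 counts. Every gene has more counts in dermal fibroblasts, from 14 against 0 counts for *Slc45a2* to 1349 against 288 for *Ednrb*, and *Tyr* and *Slc24a5* lie closest together.

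*Mitf* encodes the basic helix-loop-helix leucine zipper factor at the head of the melanocyte program, and other cells such as osteoclasts and mast cells use it from different promoters. It lies on chromosome 6 of GRCm38 from 97807002 to 98021360 on the plus strand. *Mitf* had 150 counts in chondrocytes and 599 counts in dermal fibroblasts, which is 7.98 and 34.1 CPM (counts scaled to a library total of 1000000). The dermal fibroblast library was 3.89-fold higher, with an interval from 3.25 to 4.68. *Mitf* was read in both libraries, and 60.7% of the rows of the table had fewer counts than *Mitf* in chondrocytes and 77.0% in dermal fibroblasts. The counts are per gene name and do not separate the isoforms that start at the different promoters.

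*Kit*, the receptor tyrosine kinase for stem cell factor, lies on chromosome 5 from 75574987 to 75656722 on the plus strand. It had 6 counts in chondrocytes and 51 counts in dermal fibroblasts. The fold was 8.28, with a wide interval from 3.55 to 23.6 because of the few reads in chondrocytes. *Kit* is also a receptor of mast cells, whose marker genes are given further on.

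*Ednrb*, the G protein-coupled endothelin receptor B, lies on chromosome 14 from 103814615 to 103844508 on the minus strand. It was the most abundant of the 10 genes in both libraries, with 288 counts in chondrocytes and 1349 counts in dermal fibroblasts. These counts are 15.3 and 76.8 CPM, and the fold was 4.56, with an interval from 4.01 to 5.20. *Ednrb* is known from endothelium and glia as well as from melanocytes. Together *Mitf* and *Ednrb* took 91.4% of the counts of the 10 genes in chondrocytes and 75.8% in dermal fibroblasts.

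The enzymes of melanin synthesis did not keep to a common fold. *Dct*, dopachrome tautomerase, lies on chromosome 14 from 118012790 to 118052246 on the minus strand and had 0 counts in chondrocytes and 238 counts in dermal fibroblasts. Against the floor its fold was at least 77.2, the highest bound of the 10 genes, and its counting interval started at 62.3. *Tyrp1*, tyrosinase-related protein 1, lies on chromosome 4 from 80834123 to 80851736 on the plus strand. It had 0 counts in chondrocytes and 149 counts in dermal fibroblasts. The bound was at least 48.4-fold higher there, with an interval from 38.8. The floor of 3 counts is 0.160 CPM in the chondrocyte library and the upper Clopper-Pearson limit of a count of 0 is 0.196 CPM, and the intervals above start below the bounds. At this depth *Dct* and *Tyrp1* were not detectable in chondrocytes. Their levels in dermal fibroblasts were 13.6 and 8.48 CPM.

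*Tyr* encodes tyrosinase, the enzyme of the rate-limiting step, and lies on chromosome 7 from 87424771 to 87493512 on the minus strand. Its counts were low and close to each other, at 10 in chondrocytes and 15 in dermal fibroblasts. The fold was 1.46, and its interval from 0.614 to 3.64 includes equality as well as values over 2-fold. In dermal fibroblasts, *Tyr* had 15 counts beside the 238 of *Dct* and the 149 of *Tyrp1*. In chondrocytes the order was the opposite, with 10 counts of *Tyr* beside 0 counts of each of the others. No other gene of the annotation used here shares exons with *Tyr*.

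In many promoters of pigment genes MITF binds the E-box CATGTG, and for this reason the 250 bases before the start site were searched for CATGTG on both strands, which reads CACATG on the strand shown when it lies on the other. CACGTG, the other E-box of MITF, and TGACGTCA, the cyclic AMP response element through which hormone signals reach *Mitf*, were searched as well. None of these motifs contains another. The windows were taken from RefSeq on GRCm38.p6, which had a window for 7 of the 10 genes. *Pmel*, *Mlana* and *Slc45a2* had none in the table used. The windows of *Dct*, *Tyr* and *Tyrp1* are shown because their counts differ although each holds CATGTG, and that of *Slc24a5* because it holds the motif beside counts within 2-fold. The most 3' of the 3 *Mitf* windows is shown for its TGACGTCA. Each is written 5' to 3' on the strand of the gene, with the motifs in capitals.
Dct chr14:118052247-118052496 (minus strand): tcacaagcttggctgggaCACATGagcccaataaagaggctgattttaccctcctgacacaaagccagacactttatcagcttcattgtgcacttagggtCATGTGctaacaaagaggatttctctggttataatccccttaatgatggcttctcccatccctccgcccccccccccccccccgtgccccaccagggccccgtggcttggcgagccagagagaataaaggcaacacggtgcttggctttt
Tyr chr7:87493513-87493762 (minus strand): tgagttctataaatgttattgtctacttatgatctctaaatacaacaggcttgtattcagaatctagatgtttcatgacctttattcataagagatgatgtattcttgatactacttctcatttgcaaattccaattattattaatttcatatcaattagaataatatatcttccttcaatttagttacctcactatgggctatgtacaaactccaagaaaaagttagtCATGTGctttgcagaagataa
Tyrp1 chr4:80833963-80834212 (plus strand): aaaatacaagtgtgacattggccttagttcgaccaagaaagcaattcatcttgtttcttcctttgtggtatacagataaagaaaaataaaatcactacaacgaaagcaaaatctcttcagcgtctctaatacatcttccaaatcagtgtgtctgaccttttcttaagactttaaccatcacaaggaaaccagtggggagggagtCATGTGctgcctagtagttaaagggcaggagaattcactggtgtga
Slc24a5 chr2:125067877-125068126 (plus strand): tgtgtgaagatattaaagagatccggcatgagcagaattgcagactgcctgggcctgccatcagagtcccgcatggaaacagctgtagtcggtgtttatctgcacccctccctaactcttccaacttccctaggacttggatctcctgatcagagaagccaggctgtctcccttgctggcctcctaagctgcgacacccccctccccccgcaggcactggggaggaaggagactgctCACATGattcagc
Mitf chr6:97991533-97991782 (plus strand): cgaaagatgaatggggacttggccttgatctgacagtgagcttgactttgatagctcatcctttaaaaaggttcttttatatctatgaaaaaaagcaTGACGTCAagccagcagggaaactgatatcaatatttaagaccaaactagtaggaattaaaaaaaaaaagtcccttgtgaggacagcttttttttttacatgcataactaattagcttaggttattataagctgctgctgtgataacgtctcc

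CATGTG or CACATG was present in at least 1 window of 4 of the 7 genes searched (*Dct*, *Tyr*, *Tyrp1* and *Slc24a5*), and in at least 1 window of 13.8% of all 27025 genes with such windows (12.3% of all 32851 windows). The motif was picked because it is known from promoters of pigment genes, so these shares are not a test of enrichment. In *Tyr* the motif starts 21 bases before the start site and in *Tyrp1* 46 bases before it, and in *Slc24a5* it starts 13 bases before. The start sites are those of the windows, and for *Tyrp1* and *Ednrb* they lie inside the gene positions given above. *Dct* holds CACATG at 232 bases and CATGTG at 150 bases before its start site. TGACGTCA was found in 1 of the 7 genes, at 153 bases before 1 of the 3 start sites of *Mitf*, and in 1.77% of all genes with windows. CACGTG, present in 6.86% of all genes with windows, was in none of the windows of the 7 genes (0 genes). The windows of *Kit* and *Ednrb* held none of these letters. The motif was therefore present both beside *Dct* and *Tyrp1*, with 0 counts in chondrocytes, and beside *Tyr* and *Slc24a5*, with 10 counts each in that library. These matches describe the letters of the windows, and binding was not measured.

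The structural genes of the melanosome were higher in dermal fibroblasts. *Pmel*, whose product forms the fibrils on which melanin is laid down, lies on chromosome 10 from 128695888 to 128720238 on the plus strand. It had 14 counts in chondrocytes and 90 counts in dermal fibroblasts, a fold of 6.26 with an interval from 3.54 to 11.9. In the GENCODE vM1 annotation 98 exonic bases of *Pmel* are shared with *Dgka* on the opposite strand, which had 209 and 253 counts. *Mlana*, which encodes the melanosomal membrane protein also known as MART-1, lies on chromosome 19 from 29697541 to 29708447 on the plus strand. It had 1 count in chondrocytes and 48 counts in dermal fibroblasts. The ratio of these counts was 46.7, and since it rests on 1 count its interval ran from 8.0 to 1884. With the 1 count raised to the floor of 3, as for the genes at 0 and as used for the calls and list medians, the fold of *Mlana* was 15.6.

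In dermal fibroblasts the transporter genes had, together with *Tyr*, the fewest counts of the 10 genes. *Slc45a2*, a transporter of the melanosome whose loss lightens the coat, lies on chromosome 15 from 11000721 to 11029233 on the plus strand. It had 0 counts in chondrocytes and 14 counts in dermal fibroblasts. This made it at least 4.54-fold higher in the latter, with an interval from 3.23. With a floor of 10 counts the bound was 1.36 and the call was lost, while the interval, which does not use the floor, lay over 2-fold. *Slc24a5*, a cation exchanger needed for melanin synthesis, lies on chromosome 2 from 125068127 to 125088677 on the plus strand. It had 10 counts in chondrocytes and 17 counts in dermal fibroblasts, a fold of 1.66 with an interval from 0.716 to 4.05. Of its exonic bases, 921 are shared with *Myef2* on the opposite strand, which had 809 and 512 counts in the libraries of chondrocytes and dermal fibroblasts. Whether the counting used the strand is not given in the sources used here, and the part of *Myef2* reads in the *Slc24a5* counts was not tested.

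**Figure D2:**
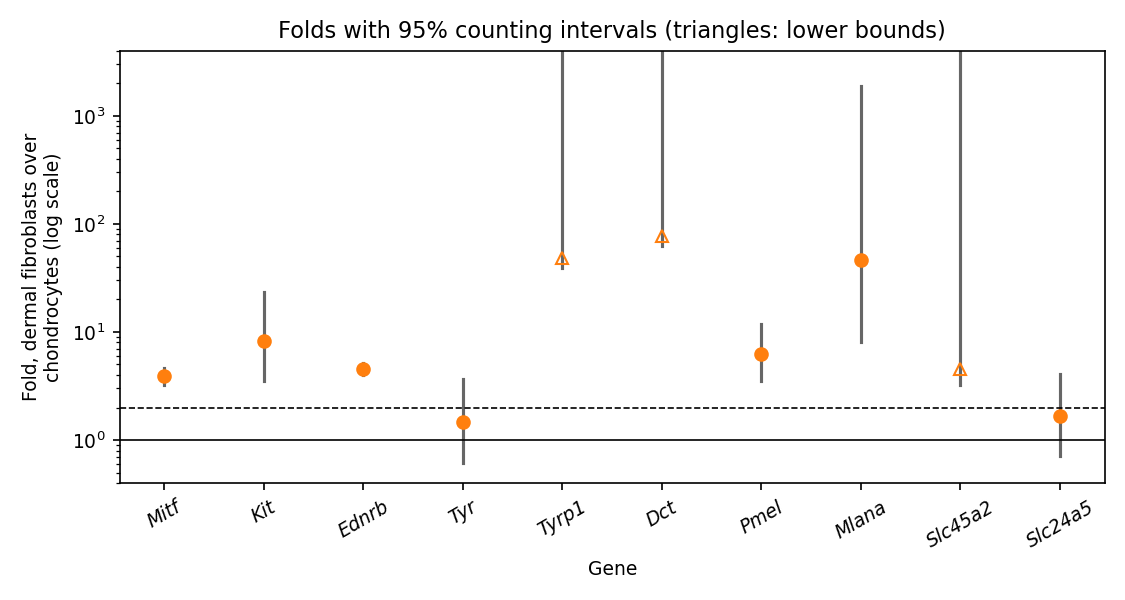
Fold of each gene in dermal fibroblasts over chondrocytes (log axis, points) with the 95% counting interval as a bar. Triangles are lower bounds for genes with 0 counts in chondrocytes, whose bars run off the top of the axis. The solid line marks equality and the dashed line 2-fold, and only the intervals of *Tyr* and *Slc24a5* reach below 2-fold among the 10 genes.

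The 10 genes summed to 479 counts in chondrocytes and 2570 counts in dermal fibroblasts. This is 25.5 CPM in chondrocytes (interval 23.3 to 27.9) and 146 in dermal fibroblasts (interval 141 to 152), and the scaled fold of the sum was 5.22 (interval 4.74 to 5.77). *Kit*, *Mitf* and *Ednrb* are regulators and receptors that other cell types use too. The 7 genes without them, the enzymes, structural proteins and transporters of the melanosome, summed to 35 counts in chondrocytes and 571 in dermal fibroblasts, or 1.86 and 32.5 CPM. Their summed fold was 15.9, with an interval from 11.3 to 23.0, while that of *Mitf* and *Ednrb* together was 4.33, with an interval from 3.90 to 4.81. These intervals do not overlap, which is a statement on counting error in these libraries. *Kit*, left out of both sums, had a fold of 8.28 with an interval from 3.55 to 23.6, which overlaps both. The 7 genes made up 7.31% of the counts of the 10 genes in chondrocytes and 22.2% in dermal fibroblasts. Of the 35 counts in chondrocytes, 14 were from *Pmel* and 10 each from *Tyr* and *Slc24a5*. Most of the 571 counts in dermal fibroblasts were from *Dct* (238) and *Tyrp1* (149). The summed fold does not hold for each of the 7 genes, since *Tyr* (1.46) and *Slc24a5* (1.66) lay below 4.33.

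To compare levels between genes, counts were divided by the exon length of each gene and given as reads per kilobase per 1000000 scaled reads. In dermal fibroblasts *Ednrb* stood first with a level of 18.2 (interval 17.2 to 19.1). *Mitf* followed at 5.22 (interval 4.81 to 5.66), *Dct* at 5.20 (interval 4.56 to 5.91) and *Mlana* at 4.18 (interval 3.09 to 5.55), and the intervals of these neighbours overlap. *Tyrp1* had a level of 2.86 (interval 2.42 to 3.36), which overlaps that of *Mlana*, and *Pmel* one of 2.29 (interval 1.84 to 2.82). With a gap to *Pmel*, *Kit* came next at 0.475 (interval 0.354 to 0.625). *Slc24a5* at 0.396, *Slc45a2* at 0.255 and *Tyr* at 0.151 each overlapped the neighbour above in this order. *Tyr* therefore had the lowest level per length of the 10 genes in dermal fibroblasts, and its interval from 0.0844 to 0.249 lies below that of *Kit* and of every gene above *Kit*.

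In chondrocytes the per-length order began in the same way, with *Ednrb* at 3.98 (interval 3.53 to 4.47) and *Mitf* at 1.34 (interval 1.14 to 1.58). *Pmel* was next at 0.366, *Slc24a5* at 0.239 and *Tyr* at 0.103. *Mlana* had 0.0895 on 1 count, *Kit* had 0.0574, and *Dct*, *Tyrp1* and *Slc45a2* were at 0. From *Pmel* on, each interval overlapped that of the next gene. *Dct* ranked 3 of the 10 genes in dermal fibroblasts and was among the 3 undetected ones in chondrocytes, while *Tyr* ranked 10 in dermal fibroblasts and 5 in chondrocytes.

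**Figure D3:**
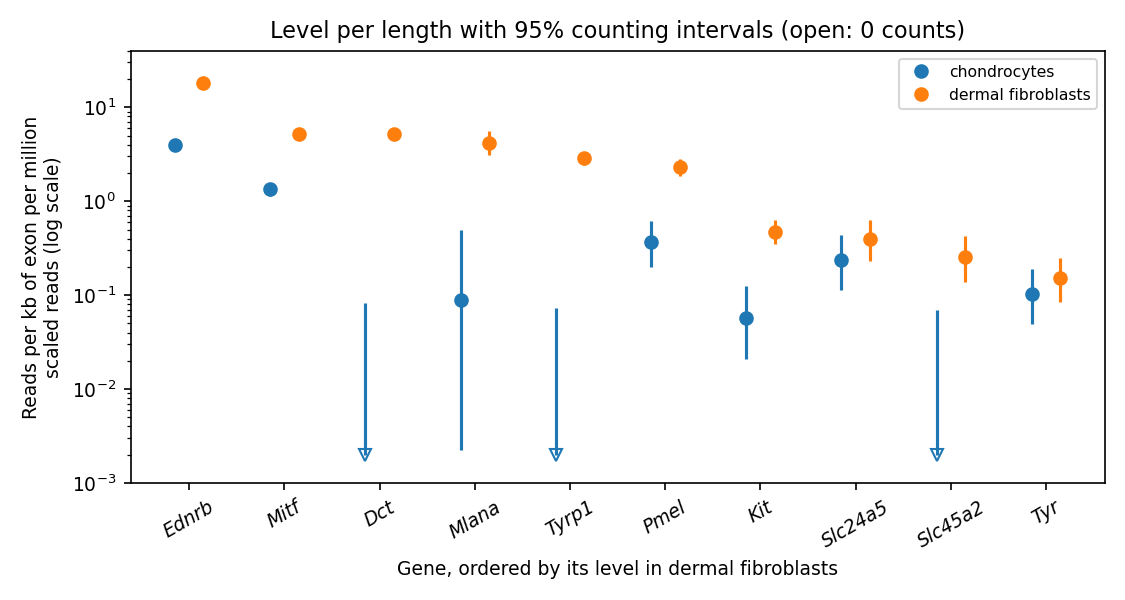
Level of each gene in reads per kilobase of exon per 1000000 scaled reads (log axis) with its 95% counting interval, for the chondrocyte and the dermal fibroblast library. Genes are ordered by their level in dermal fibroblasts, from 18.2 for *Ednrb* to 0.151 for *Tyr*. Open arrows mark the 3 genes with 0 counts in chondrocytes.

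The ligands and receptors around these genes moved in both directions. Of 11 genes on this list 10 were tested, of which 5 were over 2-fold higher in dermal fibroblasts, 3 passed 2-fold in the direction of chondrocytes and 2 were within 2-fold, with a median log2 fold of 1.20. *Kitl*, the stem cell factor that binds KIT, had 661 and 1171 counts and a fold of 1.72 (interval 1.57 to 1.90). *Edn3*, the endothelin that acts on EDNRB in the melanocyte lineage, was absent from the chondrocyte counts (0) and had 17 in dermal fibroblasts. Against the floor *Edn3* was at least 5.52-fold higher there, with an interval from 4.02. *Edn1* had 40 and 125 counts (3.04-fold) and *Ednra*, the other endothelin receptor, 342 and 1102 (3.14-fold). *Ece1*, the enzyme that activates endothelins, had 1020 and 5329 counts and a fold of 5.09 (interval 4.76 to 5.44). In the other direction, *Edn2* had 16 chondrocyte counts against 0, at least 5.48-fold higher in chondrocytes. The bounds of *Edn3* and *Edn2* fell within 2-fold with a floor of 10 counts.

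The melanocortin signal switches the type of melanin, with *Pomc* as the source of its ligand and *Asip*, the agouti protein, as its antagonist. *Asip* appears in the table under the older mouse gene name a. Its 1 count in chondrocytes stood against 68 in dermal fibroblasts, a ratio of 66.2 with an interval from 11.5 to 2653, and a log2 fold of 4.46 at the floor of 3 counts. Of its exonic bases, 147 are shared with *Raly* on the same strand, which had 3303 and 4800 counts. *Mc1r*, the receptor, had 1 and 2 counts and was not tested. *Pomc* had 35 chondrocyte counts against 8 and was 4.49-fold higher in chondrocytes (interval 2.05 to 11.2). *Hgf* had 166 and 180 counts (1.06-fold), and its receptor gene *Met* had 748 and 290 counts and was 2.65-fold higher in chondrocytes.

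Among the 10 transcription factors of the lineage, 8 were over 2-fold higher in dermal fibroblasts and 1 was over 2-fold higher in chondrocytes, with a median log2 fold of 1.70. *Sox10*, which activates *Mitf* and *Dct* and also defines glia of the neural crest, had 25 and 310 counts and a fold of 12.1 (interval 8.03 to 18.9). *Foxd3*, a factor of neural crest precursors, had 10 and 169 counts, a fold of 16.5 (interval 8.73 to 34.9). *Tfap2b* had 0 and 36 counts and was at least 11.7-fold higher against the floor, with an interval from 9.02. *Tfap2a* had 10 and 50 counts (4.87-fold). *Zeb2*, which is broadly expressed in mesenchyme, had 1587 and 3881 counts and a fold of 2.38 (interval 2.25 to 2.53). The intervals of *Pax3* (4 and 12 counts, 2.92-fold), *Irf4* (10 and 37 counts, 3.60-fold) and *Lef1* (101 and 253 counts, 2.44-fold) reached below 2-fold, and the call of *Pax3* was lost with a floor of 10 counts. *Snai2* had 2122 and 1064 counts and was 2.05-fold higher in chondrocytes (interval 1.90 to 2.21), a call that was lost with total counts as the scaling. *Tbx2*, with 105 and 67 counts, was within 2-fold.

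The 3 relatives of *Mitf* in the MiT/TFE family of lysosomal transcription factors differed from each other. *Tfe3* had 1266 and 1414 counts, a fold of 1.09. *Tfeb* had 207 and 126 counts and a fold of 0.593. *Tfec*, known from macrophages and osteoclasts, had 7 and 31 counts and was 4.31-fold higher in dermal fibroblasts, with an interval from 1.86 to 11.6.

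Of 8 further genes of pigment cells, 3 had too few counts to be tested. These were *Oca2*, *Gpr143* and *Trpm1*, with 0 counts each in chondrocytes and 1, 3 and 5 counts in dermal fibroblasts. Of the 5 tested, 4 were over 2-fold higher in dermal fibroblasts. *Mlph*, the melanophilin that links melanosomes to the cytoskeleton, had 12 and 73 counts and a fold of 5.92 (interval 3.19 to 12.0). *Rab27a*, its partner, had 90 and 220 counts (2.38-fold, interval 1.85 to 3.08), and *Rab38* had 7 and 24 counts (3.34-fold, interval 1.40 to 9.17). *Gpnmb*, which is related to *Pmel* and abundant in macrophages and connective tissue, had 4208 and 16002 counts and was 3.70-fold higher. *Slc7a11*, the cystine transporter, had 402 and 313 counts and a fold of 0.758.

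The machinery that builds lysosome-related organelles in many cell types lay closer to equality. Dermal fibroblasts were over 2-fold higher for 4 of its 18 genes, 0 passed 2-fold in the direction of chondrocytes and 14 were within 2-fold, with a median log2 fold of 0.50. This is 22.2% of the list beside the 16.2% of all tested genes. *Cd63*, a lysosomal tetraspanin, was the most abundant, with 7182 and 16621 counts (2.25-fold). *Lyst* (274 and 799 counts, 2.84-fold), *Dtnbp1* (633 and 1513 counts, 2.33-fold) and *Hps6* (127 and 276 counts, 2.12-fold, interval 1.71 to 2.63) were the others. *Ap3d1*, of the adaptor complex that sorts TYR, had 2729 and 4917 counts (1.75-fold), and *Myo5a*, the motor that carries melanosomes, had 2370 and 3503 counts (1.44-fold).

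Markers of other cells of skin and cartilage also differed between the libraries, and their part in the values above was not tested. Of the keratinocyte list 5 of 7 tested genes were higher in dermal fibroblasts by over 2-fold, its 8 genes summing to 8.78 CPM in chondrocytes and 261 in dermal fibroblasts. *Krt14* had 17 and 1939 counts and *Krt5* had 1 and 1693. On the Schwann cell list of 9, dermal fibroblasts were over 2-fold higher for 6 and chondrocytes for 2, with sums of 173 and 170 CPM. No gene of these lists was at 0 in either library. *Ngfr* had 126 and 1352 counts, while *S100b*, which cartilage also expresses, had 2657 and 87. The sum of the Schwann cell list in chondrocytes was mostly *S100b*, at 141 of the 173 CPM, against 4.95 CPM in dermal fibroblasts. The near-equal sums therefore do not describe the rest of that list. *Sox10* and *Foxd3* stand on this list as well. The median log2 fold was 2.42 for the melanocyte lineage genes, 3.93 for the keratinocyte list and 1.49 for the Schwann cell list.

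The mast cell list, which bears on *Kit* and *Mitf*, had 6 of 7 tested genes over 2-fold higher in dermal fibroblasts, on few counts. The share of all tested genes was 16.2%, and each of these 6 had at most 3 counts in chondrocytes. At the floor of 3 counts they were called by construction. The 9 genes of the list summed to 8.84 and 5.47 CPM. The interval lay wholly over 2-fold for 2 of these 6, and those of *Cma1* (3 and 9 counts) and *Mcpt4* (2 and 8 counts) included equality. The sum in chondrocytes was mostly *Gata2*, with 155 counts against 21, and *Tpsb2* had 3 and 23. *Fcer1a* was at 0 in both libraries, and *Hdc* and *Ms4a2* were at 0 in chondrocytes. The endothelial list, which bears on *Ednrb*, had 5 of 7 genes over 2-fold higher in dermal fibroblasts and none at 0. It summed to 15.5 and 49.6 CPM, with 70 and 276 counts of *Kdr* and 68 and 198 of *Cdh5*. The macrophage and osteoclast list had 2 of 7 tested genes over 2-fold higher and none at 0, and summed to 139 and 549 CPM. Most of it was *Ctsk*, with 750 and 6644 counts, and *Lyz2*, with 1046 and 1639. *Ctsk* alone was 378 of the 549 CPM in dermal fibroblasts. The other sums of this list differed less, since 5 of the 7 tested genes, *Lyz2* among them, were within 2-fold.

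**Figure D4:**
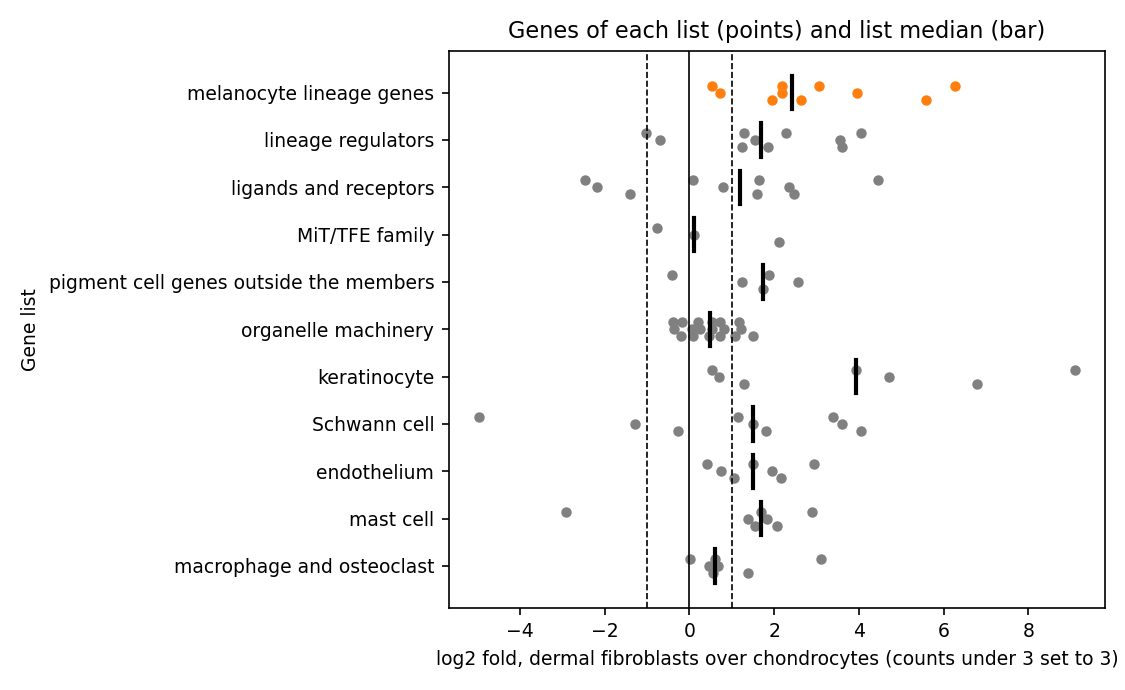
Log2 fold of dermal fibroblasts over chondrocytes for each tested gene (points), by gene list, with the list median as a bar. The solid line marks equality and the dashed lines 2-fold in either direction. The melanocyte lineage genes (orange, median 2.42) all lie above equality. So do all tested genes of the keratinocyte, endothelium, and macrophage and osteoclast lists. The organelle machinery (median 0.50) lies mostly between the dashed lines.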

How the data were processed

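The data were 1 RNA-Seq library of primary chondrocytes and 1 of primary dermal fibroblasts. The authors deposited raw read counts per gene name, from stranded mRNA libraries whose reads were mapped to mm10 with TopHat2 2.0.13, Bowtie2 2.2.3 and SAMtools 0.1.19 after base calling with CASAVA 1.8.2, per the submitters' processing notes. The counting program, its annotation and its strand setting are not given in the sources used here. The members and the gene lists were chosen with earlier results of these data known.

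Totals were scaled by TMM factors of edgeR 4.0.16 in R 4.3.3 (0.954 for chondrocytes, 1.05 for dermal fibroblasts). Folds and 95% Clopper-Pearson intervals were calculated in Python 3.11.15 (pandas 2.3.3, scipy 1.17.1, numpy 2.4.6), and figures were drawn with matplotlib 3.10.9. Genes with at least 10 counts over both libraries were tested. For the calls of a fold over 2 and for list medians, counts under 3 were set to 3. A tested gene with at most 3 counts in 1 of the libraries is thus called by construction. Printed ratios use the counts themselves. The reads carry no molecular identifiers and can be copies of a molecule, so the intervals cover counting error only. The steps were tested on simulated counts without copied reads. That test did not check planted changes or interval cover in genes with few counts.

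Genes named were the 10 members, every gene of the ligand, regulator, MiT/TFE and pigment cell lists, the called and the 3 most abundant genes of the organelle list, and the 2 most abundant markers of each cell type. Overlapping genes, markers at 0, *Lum* and the mast cell genes *Cma1* and *Mcpt4* were named after their values were seen. *Asip* was matched by its NCBI gene record, since 2 genes carry that name as a synonym. Gene positions are those of RefSeq on GRCm38, the build called mm10. Exon lengths and shared exons came from GENCODE vM1, which lies on NCBIM37, and none of its coordinates are printed. Alternatives were other scalings (total counts, DESeq2 1.42.0 factors, upper quartile, totals less the 10 highest genes of each library), floors of 1 and 10 counts, a pseudocount of 1, no filter, a 4-fold threshold, and the interval wholly beyond 2-fold.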

Additional observations from a re-analysis of the deposited data

How the results depend on the processing

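No paired analysis was possible because there was only 1 library of chondrocytes and 1 of dermal fibroblasts. The number of melanocyte lineage genes over 2-fold higher in dermal fibroblasts was 8 under the 4 other scalings, a floor of 1 count, a pseudocount of 1, no filter and the interval criterion. It was 7 with a floor of 10 counts, which lost *Slc45a2*, and 7 with a 4-fold threshold, which lost *Mitf*. The number over 2-fold higher in chondrocytes was 0 in each of these settings. Total counts as the scaling raised every log2 fold by 0.14, and the other scalings moved them by less. Of 70 folds of the 10 genes under 7 alternatives, 0 changed direction and 4 left their counting interval, all of them with a floor of 10 counts, which lowers the bound by construction. These were *Dct* (23.2), *Tyrp1* (14.5), *Mlana* (4.67) and *Slc45a2* (1.36). A 4-fold threshold left 6.31% of all tested genes higher in dermal fibroblasts and 4.84% higher in chondrocytes, and the interval criterion left 10.5% and 7.00%. Without *Kit*, *Mitf* and *Ednrb* the summed level was 1.86 CPM in chondrocytes and 32.5 in dermal fibroblasts. With the longest transcript as the length, the level of *Mitf* in dermal fibroblasts was 6.67 in place of 5.22, and the other 9 levels stayed within their intervals. Depth limits the genes with few reads most. *Tyr* and *Slc24a5* had at most 17 counts in either library, and their intervals run from below equality to 3.64-fold and 4.05-fold.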
